A study of Mus musculus with 6 samples.

Results

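The 10 genes described here encode signals that the gut lining can send to immune cells, and the receptor of IL-33. The signals are the alarmins and cytokines Il33, Il18, Il15, Tslp and Tgfb1 and the chemokines Cx3cl1, Cxcl16, Ccl25 and Ccl28. The receptor gene is Il1rl1. All 10 genes were listed by name for these roles, with earlier results of these data in view. They make up 10 of the 38561 genes in the deposited count tables. All 10 were found, and 9 of the 10 had enough counts to be tested among 16425 genes. Tslp did not. RNA of small intestinal mucosa was sequenced from 3 pools labelled Rbm47-IKO and 3 control pools labelled wt, each pool holding RNA of 3 mice of both sexes. All mice were C57BL/6J and 8 to 12 weeks old by the labels, while the study's methods give somewhat wider ranges of mice per pool and of age. The study made the Rbm47-IKO mice with a floxed Rbm47 allele and a constitutive Vil-Cre, in which the villin promoter drives Cre in the epithelium of the small and the large intestine. Its methods name Rbm47 fl/fl mice, which carry the floxed allele without Cre, as controls, while the labels call these pools wt. Rbm47 is an RNA-binding protein that takes part in C-to-U RNA editing and binds AU-rich stretches of messages. The pools held 31560320 to 38951830 counts, and pooling means that the spread below is between pools and not between animals.

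The targeted gene did not show the loss that its label names. Rbm47 (ENSMUSG00000070780, chr5:66016549-66173117, minus strand, GRCm38) stood at 603, 625 and 620 CPM (counts scaled to the size of the library) in Rbm47-IKO pools 1, 2 and 3 and at 460, 450 and 472 CPM in control pools 1, 2 and 3. All 3 pools labelled Rbm47-IKO were above all 3 control pools, with a log2 difference of 0.42 (SE 0.10) and an adjusted p of 0.0751 by the edgeR quasi-likelihood test. The higher level was called with DESeq2 (adjusted p 0.00105) and with total counts in place of TMM (0.0473), and not in the 12 other fits made (0.0545 to 0.356). These are counts over the whole gene, so the removed exons were not read on their own. The pools are therefore called by their labels throughout, as IKO-labelled pools, and each direction below rests on those labels.

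Alarmins are molecules that epithelial and stromal cells release when they are damaged or stressed. IL-33 is kept in the nucleus and, once released, binds ST2, the product of Il1rl1, paired with IL1RAP on group 2 innate lymphoid cells, regulatory T cells and mast cells. IL-18 is cut to its active form by caspase-1 and acts through MYD88. IL-15 is shown to intraepithelial lymphocytes on IL15RA, TSLP acts through CRLF2 and IL7R, and TGF-beta1 through TGFBR1 and TGFBR2. Each of the 4 chemokines has a receptor on lymphocytes or myeloid cells that brings those cells to the mucosa or holds them there. Fewer cells of one type and less RNA per cell cannot be told apart in these bulk samples.

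As a group, 7 of the 9 tested members had a positive and 2 a negative log2 difference between IKO-labelled and control pools. Their median was 0.39, in a range from -0.46 to 1.43, beside a median of -0.01 over all 16425 genes. None of the 9 passed the adjusted threshold of 0.05 in edgeR, where 2.7% of all genes tested did, 1.45% higher and 1.25% lower in the IKO-labelled pools. Without adjustment, 4 of the 9 (Il33, Il18, Cx3cl1 and Cxcl16) had a p under 0.05 in edgeR, as did 16.8% of all genes tested. DESeq2 run on the same counts called 3 of the 9 (Il18, Cx3cl1 and Cxcl16) and 7.57% of all genes. In those 4 genes all 3 IKO-labelled pools lay above all 3 control pools, and in Ccl25 all 3 lay below. Across all genes, pools did not overlap in that upward way in 11.7% and in the downward way in 11.6%. The pools of the other 4 members (Il1rl1, Il15, Tgfb1 and Ccl28) overlapped.

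**Figure D1:**
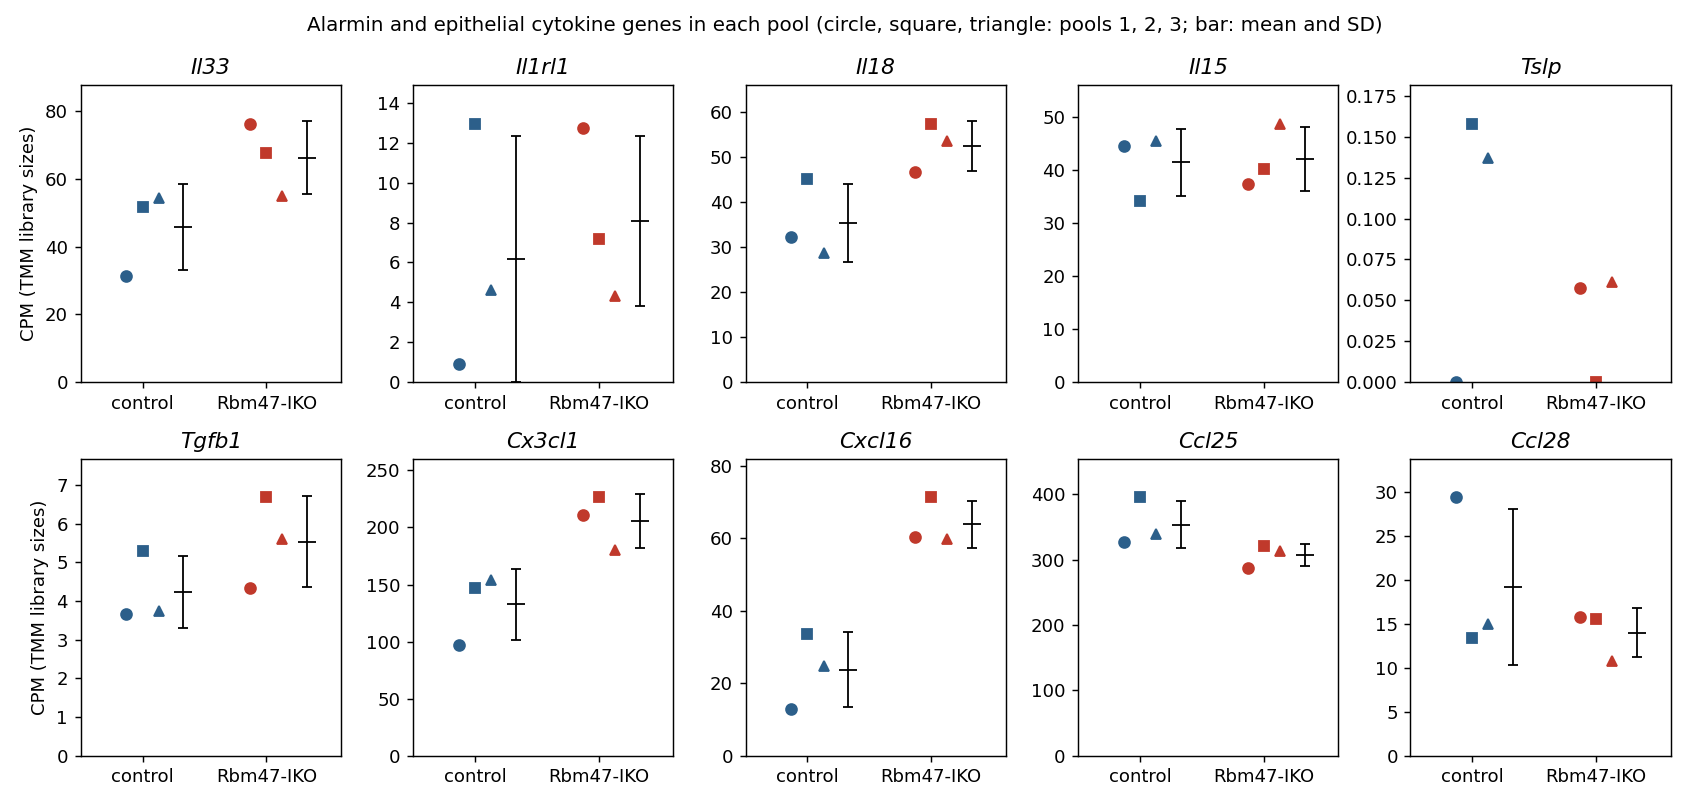
CPM of the 10 genes (vertical axes from 0, scaled to TMM library sizes) in each control pool (blue) and IKO-labelled pool (red), with pools 1, 2 and 3 as circle, square and triangle and the bar as mean and SD (no bar for Tslp). In Il33, Il18, Cx3cl1 and Cxcl16 every red point is above every blue point, in Ccl25 every red point is below, and control pool 1 (blue circle) is the lowest of all 6 points in Il33, Il1rl1, Tgfb1, Cx3cl1 and Cxcl16.

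Per length of gene, Ccl25 was the most abundant of the 10 messages. Its mean over the 6 pools was 124 RPKM (CPM per kilobase of gene length), in a range of 107.8 to 148. Il18 followed at 61.5 RPKM (40.1 to 80.4) and Cx3cl1 at 45.6 RPKM (26.1 to 61.0). The middle of the order held Il15 at 21.8, Il33 at 19.4 and Cxcl16 at 14.5 RPKM. By group, their means were 22.0, 23.0 and 21.1 RPKM in the IKO-labelled pools and 21.7, 15.9 and 7.85 RPKM in the controls. Ccl28 stood at 4.45, Tgfb1 at 1.91, Il1rl1 at 1.03 and Tslp at 0.061 RPKM. Only 3 neighbouring pairs in this order had ranges that did not meet: Ccl25 over Il18, Cx3cl1 over Il15 and Ccl28 over Tgfb1. Il15 was above Il33 in 3 of the 6 pools and Il33 above Cxcl16 in 4 of the 6, so the order of these 3 genes is not set by these data.

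**Figure D2:**
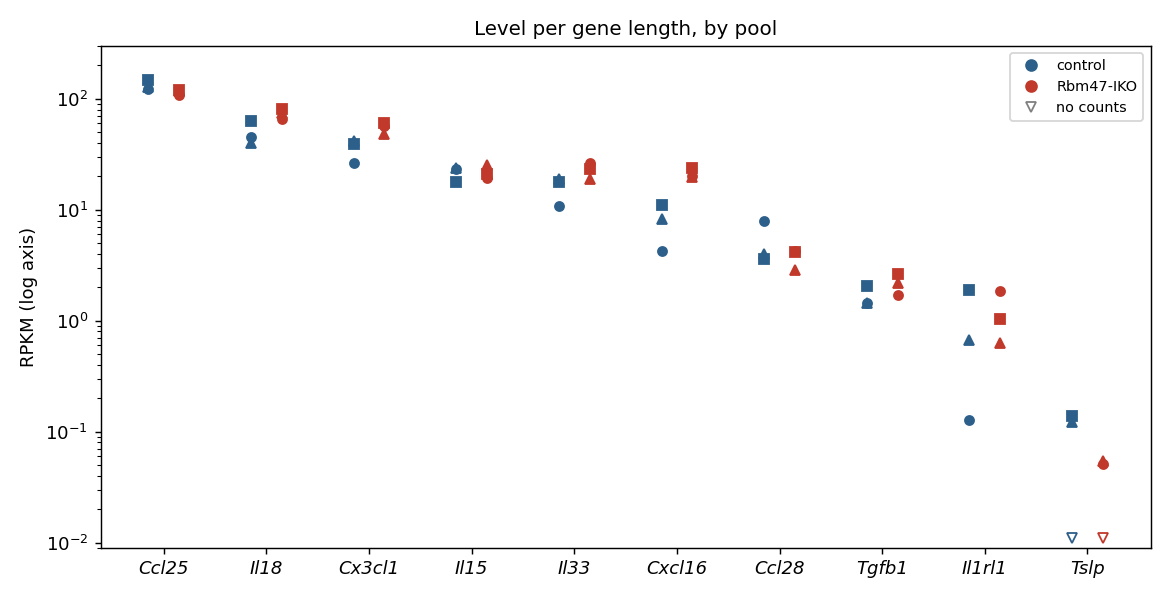
RPKM of the 10 genes in each pool (log axis, each point one pool, blue control and red IKO-labelled, open triangles for pools without a count), ordered by the mean over the 6 pools. The levels run from a mean of 124 RPKM for Ccl25 to 0.061 RPKM for Tslp.

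Il33, the nuclear alarmin of the interleukin-1 family, was measured in the study alongside its downstream product Areg, and the question for these libraries is whether its message differs between the genotypes. Il33 (ENSMUSG00000024810, chr19:29925114-29960718, plus strand) was at 76.4, 67.7 and 55.0 CPM in IKO-labelled pools 1, 2 and 3 and at 31.3, 51.8 and 54.3 CPM in control pools 1, 2 and 3. The groups did not overlap, but the lowest IKO-labelled pool and the highest control pool lay side by side, and control pool 1 was far below the others. Mean levels were 66.4 ± 10.7 and 45.8 ± 12.6 CPM (SD, n = 3 pools each), a log2 difference of 0.54 (SE 0.22, 95% interval 0.02 to 1.05) with an adjusted p of 0.28 in edgeR. Without control pool 1 the log2 difference was 0.32.

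RefSeq gives Il33 a start at each of 2 places, and counts per gene add up messages from both. The windows below run from 250 bases before to 50 bases after each start on GRCm38.p6, at chr19:29924863-29925162 and chr19:29945540-29945839 on the plus strand, and are shown because transcripts from either start enter the Il33 count. Capitals mark the letters TATAAA (the TATA box) and TTTATG (the core letters of CDX sites), each searched on both strands. In the upstream window TATAAA begins 203 bases before the start and CATAAA, the reverse complement of TTTATG, 218 and 179 bases before it. In the downstream window TATAAA begins 29 bases before the start. TATAAA was found in 13.6% and TTTATG in 11.9% of 32851 such windows. The letters TGANTCA (AP-1) and CAAAGTCCA (HNF4) were not in either window. They are found in 7.81% and 0.475% of all windows.
Il33 upstream start: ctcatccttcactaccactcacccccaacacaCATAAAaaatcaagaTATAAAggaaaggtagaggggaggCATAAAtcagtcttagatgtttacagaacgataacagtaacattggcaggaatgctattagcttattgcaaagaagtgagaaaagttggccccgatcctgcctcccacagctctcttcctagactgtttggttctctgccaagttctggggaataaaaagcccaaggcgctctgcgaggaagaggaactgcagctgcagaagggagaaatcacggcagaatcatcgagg
Il33 downstream start: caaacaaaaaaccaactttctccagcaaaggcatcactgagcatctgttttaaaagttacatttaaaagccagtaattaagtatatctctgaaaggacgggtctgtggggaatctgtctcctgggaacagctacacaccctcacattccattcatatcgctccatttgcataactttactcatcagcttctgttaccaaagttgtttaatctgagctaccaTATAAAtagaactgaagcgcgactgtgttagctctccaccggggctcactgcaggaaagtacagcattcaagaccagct

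The receptor gene Il1rl1 (ENSMUSG00000026069, chr1:40429570-40465415, plus strand), which encodes ST2, varied more between pools than any other tested member. Its counts were 441, 271 and 141 in IKO-labelled pools 1, 2 and 3 and 30, 492 and 169 in control pools 1, 2 and 3. As levels these were 12.7, 7.16 and 4.32 CPM against 0.882, 13 and 4.64 CPM. The highest and the lowest of all 6 pools were both controls, and the groups overlapped throughout. The log2 difference was 0.39 with an SE of 0.80 (95% interval -1.47 to 2.25), so the pools allow a large difference in either direction, and the edgeR adjusted p was 0.885. It turned to -0.10 without IKO-labelled pool 1 and to -0.12 without control pool 1, and was 1.54 without control pool 2. Without the pool richest in smooth muscle genes of each group (IKO-labelled pool 3 and control pool 2) it was 1.83 (SE 0.63, adjusted p 0.161), the widest move of any member. These were the lowest IKO-labelled and the highest control pool for Il1rl1, so leaving them out could only widen the difference. The 2 control pools at the extremes of Il1rl1 were also the extremes of the controls in summed smooth muscle genes (90.7 CPM in control pool 1 and 2803 CPM in control pool 2) and in summed fibroblast genes (88.9 and 411 CPM). IKO-labelled pool 3, with 3302 CPM of smooth muscle genes, had the lowest Il1rl1 of its group. The part of stromal cells in these levels was not tested. Il1rap, the co-receptor, was at 2.28 to 3.58 CPM over the 6 pools, with a log2 difference of 0.18 (SE 0.24).

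Downstream of IL-33, Areg was the one gene among the receptors, targets and other partners of the members that passed the test. Areg (ENSMUSG00000029378, chr5:91139615-91148432, plus strand) encodes amphiregulin, an epidermal growth factor receptor ligand made by innate lymphoid cells, regulatory T cells and epithelium. It was at 24.6, 29.4 and 21.5 CPM in IKO-labelled pools 1, 2 and 3 and at 7.35, 9.09 and 9.17 CPM in control pools 1, 2 and 3. Every IKO-labelled pool was far above every control pool. Areg rose 2.94-fold in the IKO-labelled pools (log2 difference 1.56, SE 0.16, 95% interval 1.18 to 1.94), with an adjusted p of 0.00875 in edgeR. Its adjusted p was 0.0509 without IKO-labelled pool 1, 0.0685 without IKO-labelled pool 2 and 0.0504 without control pool 3, and the log2 difference was at least 1.43 in each fit that left out 1 pool. The type 2 cytokine genes Il4, Il5 and Il13 had too few counts to be tested.

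AU-rich stretches in the 3′ untranslated region (UTR) are what RBM47 is known to bind, so the AUUUA pentamer was counted in the longest UTR that GENCODE M21 gives each gene. The stretches shown are one from each of the 4 members whose pools did not overlap upward and one from Areg, with AUUUA in capitals. They come from GRCm38 at chr19:29959664-29959693 (Il33, plus strand), chr9:50581799-50581828 (Il18, plus), chr8:94780850-94780879 (Cx3cl1, plus), chr11:70455102-70455131 (Cxcl16, minus) and chr5:91148371-91148400 (Areg, plus).
Il33: cucuuuuaacacAUUUAacAUUUAacuuua
Il18: cgaggcugcaugAUUUAuagaguaaacacg
Cx3cl1: cagugaacaauuAUUUAuuggauucccagc
Cxcl16: agcuaagauguuAUUUAguccaagccagcc
Areg: aAUUUAUUUAauAUUUAaguguuAUUUAuu

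The Areg stretch holds all 4 pentamers of a UTR of 253 bases, a pair of them overlapping by 1 base, which is 15.8 per kilobase. Il33 has 3 in 1677 bases, 2 of them within the stretch shown, and Cxcl16 has 2 in 1421 bases. Il18 has 1 in 334 bases and Cx3cl1 has 1 in 1871 bases. Among the members whose pools overlapped, Ccl28 has 5, Il1rl1 has 3, and Il15 and Tgfb1 have 1 each. Per kilobase this is 7.41 for Tgfb1, 3.55 for Il15, 1.52 for Ccl28 and 0.924 for Il1rl1. Tslp, which was not tested, has 2. Tgfbr1, a partner that was lower in all IKO-labelled pools, has 5. Ccl25 has 0 in 505 bases. Over the 14103 tested genes with a UTR, 69.1% have at least 1 AUUUA and 37.6% have 3 or more. Their median density is 1.26 per kilobase. Neither a single pentamer nor the count of 3 in Il33 thus sets a member apart. These are letters in the reference, not measured sites of binding.

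Il18 encodes an alarmin that epithelial cells hold as a precursor. Il18 (ENSMUSG00000039217, chr9:50575273-50581837, plus strand) was at 46.6, 57.4 and 53.4 CPM in IKO-labelled pools 1, 2 and 3 and at 32.2, 45.1 and 28.6 CPM in control pools 1, 2 and 3. The groups did not overlap, with control pool 2 close beneath the lowest IKO-labelled pool. Means were 52.5 ± 5.48 and 35.3 ± 8.68 CPM (SD, n = 3 each), a log2 difference of 0.57 (SE 0.18, 95% interval 0.15 to 0.99) with an adjusted p of 0.158 in edgeR. The call changed with the tool and the pools, since the adjusted p was 0.045 with DESeq2 and 0.0372 in edgeR without control pool 2. The gene model behind the Il18 count is 714 bases long and starts downstream of the start that RefSeq gives, so reads from the first part of the transcript may not be counted.

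Of the genes that process and relay IL-18, Casp1, the caspase that cuts the precursor, was at 68.3 to 93.5 CPM in the IKO-labelled pools and 64.0 to 74.4 CPM in the controls, a log2 difference of 0.25 (SE 0.14) with overlapping pools. Gsdmd encodes gasdermin D, which forms the pore through which IL-18 can leave a cell. It was at 352, 345 and 302 CPM in IKO-labelled pools 1, 2 and 3 and at 386, 510 and 529 CPM in control pools 1, 2 and 3. All IKO-labelled pools were below all controls, with a log2 difference of -0.51 (SE 0.15) and an edgeR adjusted p of 0.127. Myd88, the adaptor shared by the IL-33 and IL-18 receptors, was at 28.2, 25.8 and 25.4 CPM in the IKO-labelled pools and 17.1, 20.8 and 19.4 CPM in the controls. It was higher in each IKO-labelled pool than in any control (log2 difference 0.47, SE 0.12), with an adjusted p of 0.0893. Il18r1, a receptor chain, was at 1.38 to 3.35 CPM in the IKO-labelled and 1.4 to 1.91 CPM in the control pools (log2 difference 0.47, SE 0.36). The other chain, Il18rap, had a log2 difference of -0.09 (SE 0.38) with overlapping pools. Il18bp, the gene of the IL-18 binding protein, was lower in each IKO-labelled pool than in any control, by a small gap. Its log2 difference was -0.35 (SE 0.15), with an adjusted p of 0.3 in edgeR.

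Il15, the interleukin that sustains intraepithelial lymphocytes, had the smallest difference of the 9. Il15 (ENSMUSG00000031712, chr8:82331637-82403222, minus strand) was at 37.2, 40.2 and 48.7 CPM in IKO-labelled pools 1, 2 and 3 and at 44.5, 34.2 and 45.4 CPM in control pools 1, 2 and 3. The pools were interleaved. Mean levels were 42.0 ± 5.95 and 41.4 ± 6.23 CPM (SD, n = 3 each), and the log2 difference of 0.02 (SE 0.15) had a 95% interval of -0.33 to 0.38. Its sign changed with the pools left out. The gene for its presenting chain, Il15ra, was at 11.9 to 15.1 CPM in the IKO-labelled pools and 11.2 to 13.8 CPM in the controls, with a log2 difference of 0.13 (SE 0.15). Summed genes of T cells, the main cells IL-15 acts on here, were at 142 to 227 CPM in the IKO-labelled and 159 to 226 CPM in the control pools, with 4 of 7 positive and none called.

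Tslp (ENSMUSG00000024379, chr18:32815383-32819799, plus strand), an alarmin of barrier epithelia, was close to undetected. It had 2, 0 and 2 counts in IKO-labelled pools 1, 2 and 3 and 0, 6 and 5 counts in control pools 1, 2 and 3. At this depth a count of 0 allows up to 3 counts, for counting error alone, and no fold change is given. The TSLP receptor gene Crlf2 was at 6.09 to 7.13 CPM in the IKO-labelled pools and 7.06 to 7.77 CPM in the controls (log2 difference -0.13, SE 0.16). Its partner chain Il7r, which also serves IL-7, was at 0.78, 1.03 and 1.35 CPM in the IKO-labelled pools and 2.38, 1.63 and 1.54 CPM in the controls. These pools did not overlap, at few counts, and the log2 difference of -0.81 (SE 0.33) had an adjusted p of 0.274 in edgeR.

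Tgfb1 encodes a cytokine that restrains mucosal lymphocytes and is secreted in a latent form. Tgfb1 (ENSMUSG00000002603, chr7:25687002-25705077, plus strand) was at 4.33, 6.68 and 5.60 CPM in IKO-labelled pools 1, 2 and 3 and at 3.68, 5.30 and 3.73 CPM in control pools 1, 2 and 3. Control pool 2 lay within the range of the IKO-labelled pools. The log2 difference was 0.39 (SE 0.25, 95% interval -0.19 to 0.96), with an adjusted p of 0.51 in edgeR. It was 0.23 without IKO-labelled pool 2 and 0.58 without control pool 2. Tgfbr1, the signalling receptor, stood at 24.3, 24.8 and 31.4 CPM in the IKO-labelled pools and at 38.3, 35.0 and 44.3 CPM in the controls. All IKO-labelled pools were lower, with a log2 difference of -0.55 (SE 0.14, adjusted p 0.0975 in edgeR), while Tgfbr2, which binds the ligand first, was at 30.8 to 38.8 against 24.6 to 38.9 CPM (log2 difference 0.24, SE 0.19).

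Cxcl16 showed the largest difference of the 9 tested members. CXCL16 is a chemokine anchored in the membrane that also acts as a scavenger receptor, and it attracts lymphocytes that carry CXCR6. Cxcl16 (ENSMUSG00000018920, chr11:70453983-70459984, minus strand) had 2090, 2701 and 1956 counts in IKO-labelled pools 1, 2 and 3 and 435, 1272 and 905 counts in control pools 1, 2 and 3. In CPM these were 60.4, 71.3 and 59.9 against 12.8, 33.5 and 24.8. The lowest IKO-labelled pool was well above the highest control, and the IKO-labelled pools were tightly grouped (coefficient of variation 10.1%) while the controls were spread (43.9%).

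The fold of Cxcl16 was 2.69 (log2 difference 1.43, SE 0.31, 95% interval 0.71 to 2.15), with an unadjusted p of 0.00192 and an adjusted p of 0.0593 in edgeR, just outside the threshold of 0.05. With other choices it was called: the adjusted p was 5.77e-05 with DESeq2, 0.0457 with limma-voom and 0.0241 when no filter on low counts was used. Leaving out control pool 1 gave a log2 difference of 1.13 with an adjusted p of 0.028, and leaving out control pool 2 gave 1.76 with 0.0285, both by edgeR. Leaving out any 1 of the other 4 pools gave log2 differences of 1.34 to 1.47 that were not called (edgeR adjusted p 0.126 to 0.247). Nor was there a call with RLE normalization (0.0632) or with the pool number as a replicate block (0.0711). The 2 remaining choices of scaling and filter (0.0516 and 0.054) gave no call either. Its exons share 552 bases, 18.3% of the gene model, with Zmynd15 on the opposite strand, which had 71 to 96 counts and a log2 difference of 0.20. Whether reads were counted by strand is not given in the sources used here. The receptor gene Cxcr6 was at 2.48 to 3.06 CPM in the IKO-labelled and 2.53 to 4.50 CPM in the control pools (log2 difference -0.41, SE 0.27).

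Cx3cl1 encodes fractalkine, the second chemokine of the list that is made as a membrane protein. Cx3cl1 (ENSMUSG00000031778, chr8:94772009-94782423, plus strand) was at 211, 226 and 180.2 CPM in IKO-labelled pools 1, 2 and 3 and at 97.0, 147 and 154 CPM in control pools 1, 2 and 3. The groups did not overlap, and control pool 1 was again the lowest. The log2 difference was 0.63 (SE 0.19, 95% interval 0.19 to 1.07), with an adjusted p of 0.133 in edgeR and 0.0264 in DESeq2. Without control pool 1 it was 0.45. Its receptor gene Cx3cr1, expressed by intestinal macrophages, was at 3.06 to 4.69 CPM in the IKO-labelled pools and 3.09 to 5.01 CPM in the controls (log2 difference -0.06, SE 0.29).

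ADAM10 and ADAM17 are the proteases that release CX3CL1 and CXCL16 from the membrane. Adam17 was at 38.0, 32.6 and 34.4 CPM in IKO-labelled pools 1, 2 and 3 and at 54.6, 44.4 and 56.0 CPM in control pools 1, 2 and 3. All IKO-labelled pools were below all controls, opposite in sign to both substrates, with a log2 difference of -0.56 (SE 0.12) and an adjusted p of 0.0639 in edgeR. Adam17 was called with DESeq2 (adjusted p 0.0061), with total counts in place of TMM (0.0478) and without control pool 2 (0.0396), and not in the 11 other fits made (0.0504 to 0.31). Adam10, at 122 to 146 CPM against 116 to 136 CPM, had a log2 difference of 0.15 (SE 0.12).

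Ccl25 and Ccl28 were the 2 members with a negative difference. CCL25 is the small intestinal chemokine that draws lymphocytes with CCR9, and CCL28 draws plasma cells with CCR10 that make IgA. Ccl25 (ENSMUSG00000023235, chr8:4325210-4360020, plus strand) was at 288, 320.1 and 313 CPM in IKO-labelled pools 1, 2 and 3 and at 327, 395 and 339 CPM in control pools 1, 2 and 3. No pools overlapped, by a small gap, and the log2 difference was -0.20 (SE 0.12, 95% interval -0.48 to 0.07) with an adjusted p of 0.453 in edgeR. Without control pool 2, the highest of the 6, it was -0.11. Of its exon bases, 1112 (41.7%) are shared on the same strand with ENSMUSG00000055951, which had 0 counts in all 6 pools. Reads that fit both models may thus be missing from the Ccl25 count.

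Ccl28 (ENSMUSG00000074715, chr13:119623819-119654354, plus strand) was at 15.8, 15.5 and 10.8 CPM in IKO-labelled pools 1, 2 and 3 and at 29.4, 13.4 and 15.0 CPM in control pools 1, 2 and 3. Control pool 1 alone was high, and the other 5 pools were close together. The log2 difference of -0.46 (SE 0.31, adjusted p 0.543 in edgeR) went to -0.01 without control pool 1. The receptor genes were low: Ccr9 was at 4.77 to 5.41 against 5.38 to 10.5 CPM (log2 difference -0.56, SE 0.26, adjusted p 0.347) and Ccr10 at 0.78 to 1.29 against 1.09 to 1.32 CPM (log2 difference -0.25, SE 0.31).

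Of the 11 receptor genes, 4 had a positive and 7 a negative difference, and none was called. Their mean levels were 0.270 to 6.83 RPKM, with 5 of the 11 under 1 RPKM. Among 54 partner genes in all (receptors, proteases, adaptors, activators and related cytokines), 50 were tested, 22 with a positive and 28 with a negative difference, with a median of -0.10. Areg was the 1 called gene of the 50, higher in the IKO-labelled pools, and none was called lower, beside 2.7% of all genes called in either direction. Cxcl10, an interferon-induced chemokine named after its values were seen, had the largest difference of the partners. It was at 4.39, 12.1 and 4.10 CPM in IKO-labelled pools 1, 2 and 3 and at 1.0, 3.03 and 1.4 CPM in control pools 1, 2 and 3. Each IKO-labelled pool was higher than each control (log2 difference 1.92, SE 0.56), with an adjusted p of 0.128 in edgeR. The log2 difference was 1.23 without IKO-labelled pool 2 and 2.51 without control pool 2. Cxcl10 was called in 3 of the 14 other fits made, among them DESeq2 (adjusted p 0.00455) and the fit without the smooth muscle-rich pool of each group (0.0403), and not in the remaining 11 (0.0663 to 0.451). The smooth muscle-rich pools were the lowest IKO-labelled and the highest control pool for Cxcl10, so leaving them out could only widen its difference. DESeq2 called 6 of the 50 partners (Myd88, Areg, Gsdmd, Tgfbr1, Adam17 and Cxcl10), beside 7.57% of all genes.

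**Figure D3:**
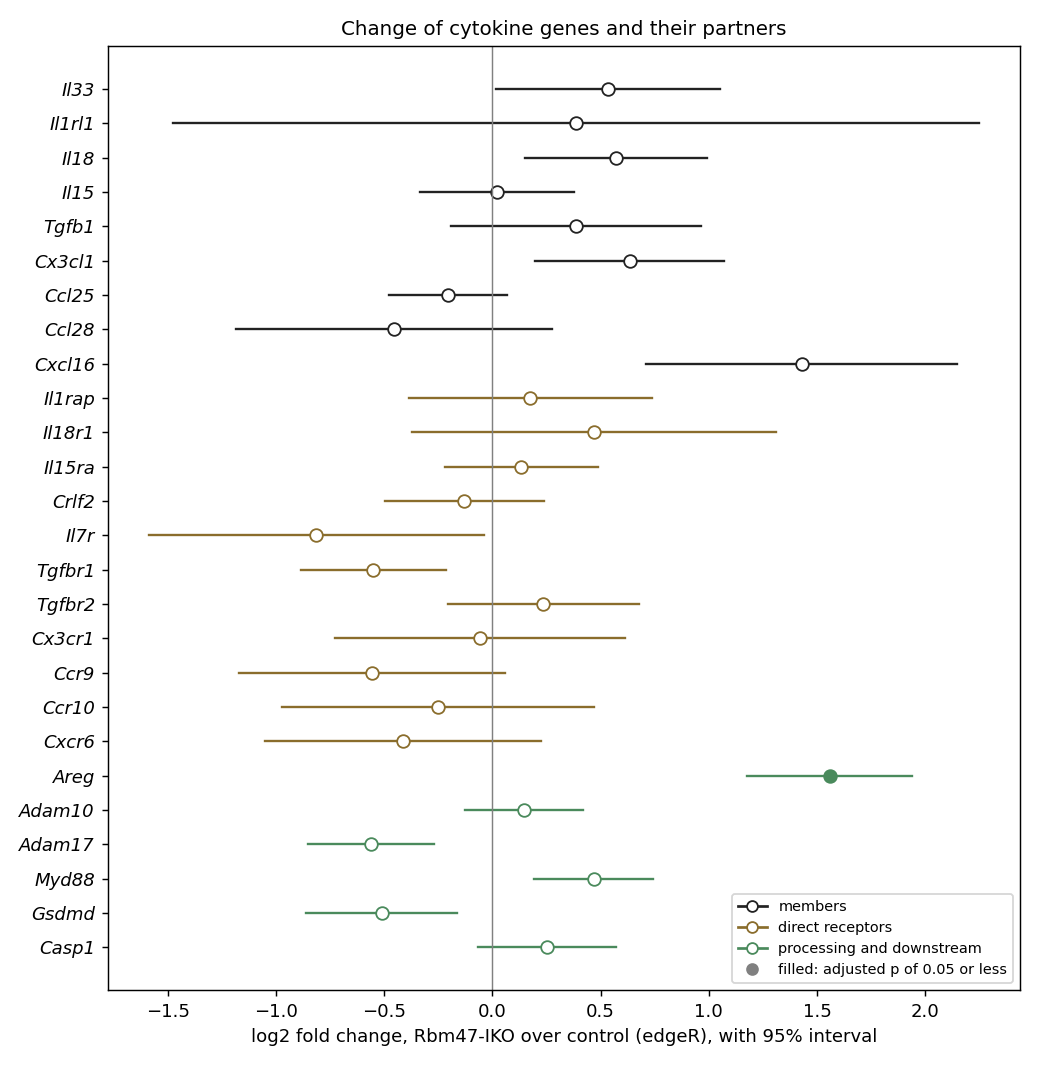
Log2 difference (IKO-labelled over control, edgeR, 3 pools each) with its 95% interval for the 9 tested members (black), 11 receptor genes (brown) and 6 processing or downstream genes (green). Areg, at 1.56, is the one filled point (adjusted p of 0.05 or less), Cxcl16 at 1.43 is the farthest of the members, and the interval of Il1rl1, from -1.47 to 2.25, is the widest.

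Summed levels of 2 of the 12 marker lists did not overlap between the groups, beside the 11.7% and 11.6% of single genes given above, and none of their genes was called. Summed goblet cell genes were at 19950, 22538 and 19804 CPM in IKO-labelled pools 1, 2 and 3 and at 17240, 15573 and 14906 CPM in control pools 1, 2 and 3, higher in every IKO-labelled pool, with 5 of 5 genes positive. Most of that sum was Fcgbp (log2 difference 0.37) and Clca1 (0.60), while Tff3 was at 0.06. Summed enterocyte genes were at 32414, 35522 and 32042 CPM against 36319, 38722 and 37649 CPM, lower in every IKO-labelled pool, with 3 of 7 genes positive. Apoa4 (-1.01) and Sis (-0.39) carried that sum, against Fabp2 at 0.51 and Alpi at 0.01. Both sums separated the pools as Il33, Il18, Cx3cl1, Cxcl16, Ccl25 and Areg did, and their part in those results was not tested. Genes shared by all epithelial cells summed to 8211 to 10110 CPM in the IKO-labelled and 8639 to 9891 CPM in the control pools, and these pools overlapped.

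Genes of the rarer cell types summed to far lower levels. Tuft cell genes summed to 79.3 to 143 CPM in the IKO-labelled pools and 59.5 to 156 CPM in the controls. The 6 mast cell genes summed to 21.9 to 23.1 CPM against 15.3 to 22.7 CPM, with 3 of the 6 tested. Kit, which other cells also express, was 18.5 to 20.3 CPM of the sum in the IKO-labelled pools, Mcpt1 (log2 difference -0.30) and Mcpt2 (-0.35) had the opposite sign, and the mast cell genes Fcer1a and Ms4a2 had 0 to 3 counts in any pool. Macrophage and dendritic cell genes were at 58.8 to 74.5 against 65.1 to 97.9 CPM, and B and plasma cell genes at 55.4 to 108 against 90.1 to 148 CPM. Endothelial genes were at 24.0 to 42.8 against 30.4 to 64.8 CPM, and Paneth cell genes at 389.6 to 694 against 376 to 1508 CPM. No marker gene in any list was called. Smooth muscle genes ranged from 361 to 3302 CPM in the IKO-labelled and from 90.7 to 2803 CPM in the control pools. Leaving out the pool with most of them from each group kept the sign of every tested member but Il15. Cxcl16 was then at 1.80 (adjusted p 0.0314 in edgeR) and Il1rl1 at 1.83 (0.161). For both genes the pools left out were the lowest IKO-labelled and the highest control pool. Leaving them out could only widen both differences, so this fit cannot show what smooth muscle content did to them.

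**Figure D4:**
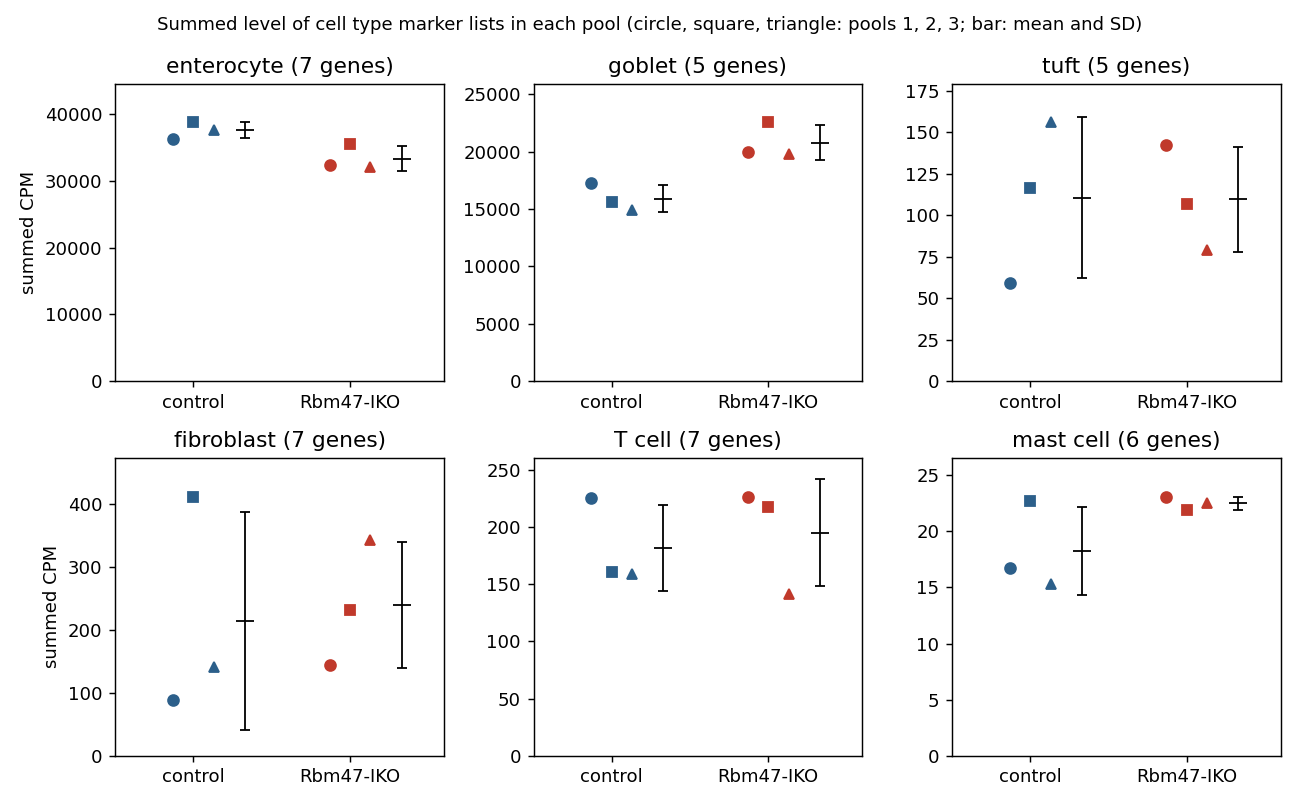
Summed CPM of 6 cell type marker lists (vertical axes from 0) in each control pool (blue) and IKO-labelled pool (red), with pools 1, 2 and 3 as circle, square and triangle and the bar as mean and SD. The enterocyte sums are lower and the goblet sums higher in every IKO-labelled pool, and the pools overlap in the tuft, fibroblast, T cell and mast cell sums.

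Single pools weighed on several members at once. Control pool 1 was the lowest of the 6 for 5 of the 9 tested members (Il33, Il1rl1, Tgfb1, Cx3cl1 and Cxcl16) and the highest for Ccl28. IKO-labelled pool 2 was the highest for 4 (Il18, Tgfb1, Cx3cl1 and Cxcl16). The differences of Il33, Il18, Tgfb1, Cx3cl1 and Cxcl16 stayed positive, and those of Ccl25 and Ccl28 negative, in each of the 14 other fits made. The pools of Il33, Il18, Cx3cl1, Cxcl16 and Ccl25 did not overlap. Leaving out pools could therefore not turn the sign of these genes, and the other fits reuse the same counts. The coefficient of variation between control pools exceeded that between IKO-labelled pools in all 9 tested members, from 10.3% against 5.59% in Ccl25 to 100.4% against 53.1% in Il1rl1. The gap was narrow in Il15 (15.1% against 14.2%) and Tgfb1 (21.7% against 21.2%). How many of all genes share this order was not counted, so it is not shown to be a trait of the members.

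**Figure D5:**
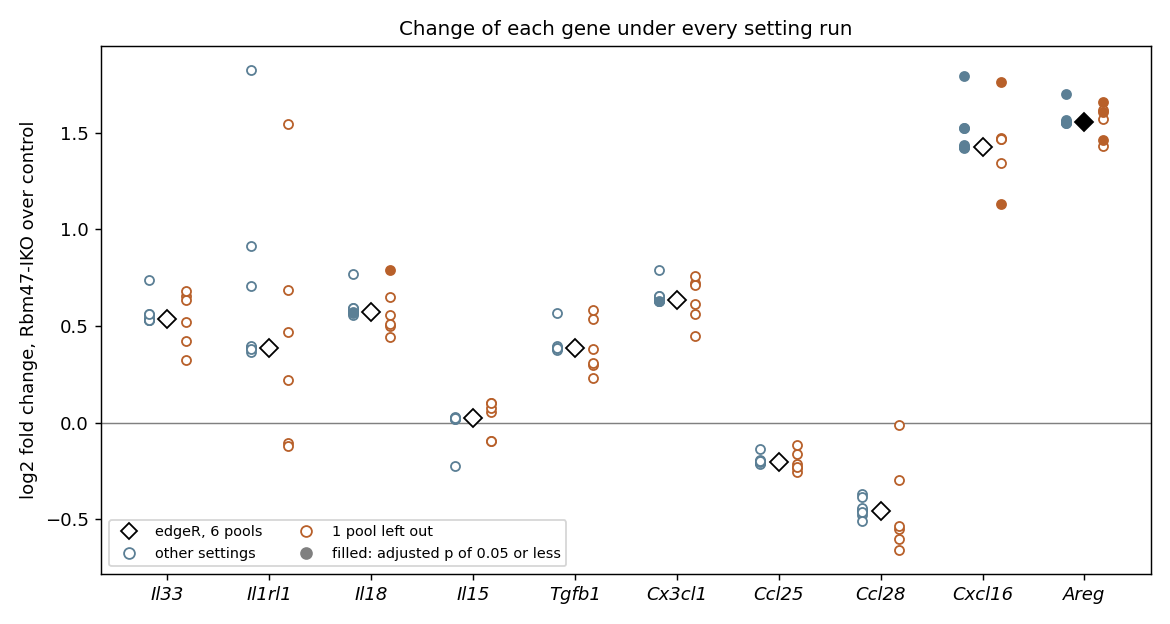
Log2 difference (IKO-labelled over control) of the 9 tested members and Areg in the edgeR fit of all 6 pools (diamonds), under other settings (blue) and with 1 pool left out (orange), with filled points for an adjusted p of 0.05 or less. Cxcl16 lies between 1.13 and 1.80 and is called in some fits, Il33 is positive and never called, and Il1rl1 and Il15 cross 0.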

How the data were processed

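The authors aligned reads of oligo(dT)-selected RNA to GRCm38 with STAR 2.5.1a and counted them per gene with featureCounts 1.4.6-p5 (Subread), per the submitters' processing notes. The annotation release and the strand setting are not given in the sources used here. The deposited tables give counts per gene, which were used, and CPM and RPKM that the authors computed from them, which were recomputed and not used further. Symbols came from GENCODE M21 (36639 of 38561 genes) and promoter windows from RefSeq (7 of the 10 members).

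The main test was the edgeR 4.0.16 quasi-likelihood test (R 4.3.3) on genotype, with TMM, the filterByExpr filter and Benjamini-Hochberg adjustment over 16425 genes at 0.05. CPM and RPKM in the text use TMM library sizes and the gene lengths of the tables. SE is the log2 difference over the root of F of the edgeR test. Its p-values set the difference between groups against the variation between pools, which the fit moderates across genes. An exact permutation test of 3 pools against 3 cannot go under 0.1. The fit was tested on simulated data. Alternatives were DESeq2 1.42.0, limma-voom 3.58.1, other normalizations and filters, the pool number as a block, each pool left out, and, added after seeing the data, the pool with most smooth muscle RNA of each group left out. The members and lists were chosen with earlier results of these data known. Named genes were the members, their receptors, Areg, and the 3 other partners with the smallest p (Adam17, Myd88, Gsdmd), with Adam10, Casp1, Cxcl10, Il18rap and Il18bp added.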

Additional observations from a re-analysis of the deposited data

How the results depend on the processing

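Of 126 values of the 9 tested members under 14 other fits, 112 kept their direction and side of the threshold, 9 passed it newly and 5 changed sign. Il15 (0.02) became -0.09 without IKO-labelled pool 3, -0.10 without control pool 2 and -0.22 without the smooth muscle-rich pool of each group, with -0.10 to 0.10 over the fits that left out 1 pool. Il1rl1 (0.39) became -0.10 without IKO-labelled pool 1 and -0.12 without control pool 1, with -0.12 to 1.54 over such fits. The number of genes called (443) was 1243 with DESeq2. Members called (0) were 3 with DESeq2, 1 with limma-voom, 1 with no filter on low counts and 1 without the smooth muscle-rich pools. Partners called (1) were 6 with DESeq2, 2 with library size only and 2 without the smooth muscle-rich pools. Leaving out 1 pool at a time gave 0 to 431 genes, 0 to 2 members and 0 to 2 partners, with 32 genes without IKO-labelled pool 1, 0 without IKO-labelled pool 2 (1729 at an unadjusted p under 0.05 in edgeR), 119 without IKO-labelled pool 3 and 11 without control pool 3. The cause was not tested. As deviations from their group mean, same-numbered pools correlated at 0.408, -0.00258 and -0.277 across genes. Pools of different number correlated at -0.536 to 0.479. Deviations of 3 pools a group depend on each other, so these values cannot decide whether pool numbers pair the samples. The fit with the number as a replicate block called 100 genes, 0 members and 2 partners, Areg and Cxcl10 (adjusted p 0.046 in edgeR). With 3 pools a group, the SE of a member's log2 difference ran from 0.12 (Ccl25) to 0.80 (Il1rl1).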
